A study of Mus musculus with 32 samples.

Results

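The vessels of the choroid and the cells around them were read from 30 genes of a table of 34453 genes. The genes were chosen by name, as markers of 3 compartments: 15 of endothelium, 7 of mural cells (pericytes and vascular smooth muscle), and 8 of fibroblasts. Schwann cells are also counted among the cells of the choroidal stroma, but none of the 30 genes marks them, so a further list of Schwann cell genes was read beside them. All 30 genes had a row in the table and passed the filter on low counts in every comparison.

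The choroid is the vascular layer behind the retinal pigment epithelium (RPE), and its innermost layer, the choriocapillaris, supplies the RPE and the outer retina. Its capillaries are lined by a fenestrated endothelium, which is maintained by vascular endothelial growth factor made by the RPE. Pericytes and smooth muscle cells wrap the vessels and are recruited and kept in place by platelet-derived growth factors, while angiopoietin 1 from cells around the vessel acts on the receptor TEK of the endothelium. Fibroblasts of the stroma lay down the fibrillar collagens and the small proteoglycans decorin and lumican.

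RNA was taken from the RPE of *rd1* mice, of the FVB/N strain, which lose their rods early because of a mutation in *Pde6b*. By subretinal injection, each mouse received AAV-Best1-GFP in both eyes, and AAV-Best1-Nrf2 was added to it in 1 eye only (Nrf2 eye), leaving the other as the control eye. By the doses in the methods, the Nrf2 eye received more virus in total than the control eye. An effect of this added virus cannot be told apart from one of Nrf2. The human Best1 promoter drives the human *NFE2L2* cDNA in the RPE, so the transgene is not designed to act in the cells of the choroid. There were 7 mice at P20 and 9 mice at P40, giving 32 libraries in 4 groups: control P20 (n = 7), Nrf2 P20 (n = 7), control P40 (n = 9), and Nrf2 P40 (n = 9). The mice at P20 and P40 were different animals. According to the methods, the retina was lifted off, the eyecup was cleaned of connective tissue, and the RNA released from it into solution was collected, so that what reached the libraries from the choroid came along with the RPE. The methods name 6 pairs of *rd1* mice at P20, 4 pairs of *rd1* mice at P40 and 5 pairs of CD1 mice at P40, whereas the labels give 7 and 9 pairs of *rd1* mice. The strain was taken from the labels, and a difference in strain cannot be told apart from a difference in age for any of these 5 pairs. The labels mention 2 sequencing runs without assigning the libraries to them, so age and run could not be told apart either. The titles of all P20 libraries begin with M and those of all P40 libraries with A. What these letters stand for is not given, and it cannot be told apart from age.

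The total estimated count was 16548332 to 50542797 per library. At these depths, 3 counts corresponded to 0.0566 to 0.182 CPM (counts scaled to a common library size), and none of the 30 genes was at or below 3 counts in any library. These limits cover counting error only, since the RNA had been amplified. The transgene stood out in 2 libraries of P20. Mouse 3 had 1098 CPM of it in the library labelled control, whereas no other control library was above 154 CPM. Mouse 4 had 1082 CPM in the library labelled Nrf2, whereas no other Nrf2 library was below 3205 CPM. These were also the 2 most similar of all libraries, at 8.18 times sampling noise, with the next pair at 48.8 times. Tests that use P20 libraries were therefore repeated without P20 mice 3 and 4, and the values are printed beside many of the results.

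The 30 genes together had 370.2 to 1911 CPM in a library, or 0.0370% to 0.191% of its scaled size. Levels of different genes are compared here per kilobase of exons. In control eyes at P20, *Tagln* and *Myh11*, which encode contractile proteins of smooth muscle, had the highest mean levels, at 42.2 and 31.9 CPM per kilobase. *Dcn* (decorin) had 23.3 CPM per kilobase and *Kcnj8*, an ATP-sensitive potassium channel subunit of pericytes, had 19.2. The other pericyte markers were far lower, with *Pdgfrb* at 1.73, *Rgs5* at 0.867 and *Cspg4* at 0.584 CPM per kilobase. Which cells gave the *Kcnj8* RNA was not tested. *Plvap*, which forms the diaphragms of fenestrae, was the highest endothelial gene at 18.2 CPM per kilobase, whereas *Cdh5*, the cadherin of endothelial junctions, was the lowest of the 30 at 0.449. For comparison, *Rpe65*, the retinoid isomerase of the RPE, had 670.1 CPM per kilobase in the same eyes. Defining markers of endothelium (*Pecam1*, *Cdh5*), mural cells (*Pdgfrb*, *Rgs5*) and fibroblasts (*Dcn*, *Col1a1*) were thus above the floor in all 32 libraries, at levels far below those of the RPE. In bulk RNA, fewer cells of a type and less RNA per cell cannot be told apart.

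The upstream sequences of the genes that differed between Nrf2 eyes and control eyes are shown because these genes set the results below. They were taken from RefSeq promoters on GRCm38.p6, in which 17 of the 30 genes were matched. Each runs 5′ to 3′ on the strand of the gene and ends just before its RefSeq start, except that of *Cspg4*, which stops before the first exon annotated by GENCODE. Capitals mark matches to 5 motifs searched on both strands.
*Kcnj8*, chr6:142571615-142571864, minus strand: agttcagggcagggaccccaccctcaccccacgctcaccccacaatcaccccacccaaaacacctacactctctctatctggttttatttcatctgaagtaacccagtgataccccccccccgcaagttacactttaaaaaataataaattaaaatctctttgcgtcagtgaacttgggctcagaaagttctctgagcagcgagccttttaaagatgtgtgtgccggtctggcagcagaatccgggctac
*Rgs5*, chr1:169655251-169655500, plus strand: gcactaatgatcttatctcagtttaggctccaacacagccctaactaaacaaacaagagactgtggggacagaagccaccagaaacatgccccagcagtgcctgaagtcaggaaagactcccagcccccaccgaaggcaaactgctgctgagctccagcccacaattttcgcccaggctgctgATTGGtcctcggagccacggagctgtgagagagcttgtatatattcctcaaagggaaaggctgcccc
*Cspg4*, chr9:56864854-56865032, plus strand: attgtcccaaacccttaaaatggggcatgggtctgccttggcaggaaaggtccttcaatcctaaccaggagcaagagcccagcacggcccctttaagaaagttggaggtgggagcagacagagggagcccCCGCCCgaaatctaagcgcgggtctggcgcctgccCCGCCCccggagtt
*Col3a1*, chr1:45311288-45311537, plus strand: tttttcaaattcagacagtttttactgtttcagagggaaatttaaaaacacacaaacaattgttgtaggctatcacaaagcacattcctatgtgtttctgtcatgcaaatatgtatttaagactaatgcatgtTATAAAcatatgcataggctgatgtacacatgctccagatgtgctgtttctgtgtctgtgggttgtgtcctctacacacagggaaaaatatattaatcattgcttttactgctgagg

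The motifs were the core of the antioxidant response element that Nrf2 binds (TGACNNNGC), the CCAAT box (CCAAT), the TATA box (TATAAA), the GC box (GGGCGG), and the CArG box of smooth muscle genes. Among 32841 promoters of 250 upstream bases, 10.2% held the antioxidant response element, 33.9% the CCAAT box, 12.4% the TATA box, 32.7% the GC box, and 1.47% the CArG box. Of the 17 genes matched, 2 held the antioxidant response element (*Egfl7* and *Kdr*), and none of the 4 printed sequences did. Bases outside these 250 were not searched, so sites elsewhere would have been missed. Distances are counted from the RefSeq start, which for *Cspg4* lies past the end of the printed sequence. The sequence of *Rgs5* had a CCAAT box 67 bases before this start, and that of *Col3a1* had a TATA box 117 bases before it. That of *Cspg4* had 2 GC boxes, 120 and 85 bases before its RefSeq start. No motif was found in the sequence of *Kcnj8*. None of the 17 genes held the CArG box.

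The comparison of the Nrf2 eye with the control eye of the same mouse asks how gene expression changed with Nrf2 in the RPE. A gene passed the threshold where its *P* value from edgeR's quasi-likelihood test, adjusted over all genes, was under 0.05. At P20, 2 of the 30 genes passed, both of the mural list and both lower with Nrf2. Over all genes, 3.41% passed (556 of 16303), with 2.93% higher and 0.485% lower. This share depended on single mice, and was 0.68% (102 higher, 9 lower) without mouse 7 and 12.2% (986 higher, 1013 lower) without mouse 4. No endothelial gene (0 of 15) and no fibroblast gene (0 of 8) passed, and the unadjusted *P* value was under 0.05 for 4 of the 30 genes. The median log2 fold change was −0.13 over the 30 genes and −0.04 over all genes tested.

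At P40, 3 genes passed: *Kcnj8* and *Cspg4* of the mural list were lower with Nrf2, and *Col3a1* of the fibroblast list was higher. Which cells these changes came from was not tested. Over all genes, 4.57% passed (762 of 16686), with 3.33% higher and 1.23% lower. Again no endothelial gene passed (0 of 15), and the unadjusted *P* value was under 0.05 for 3 of the 30 genes. The median log2 fold change of the 30 genes was 0.23, against −0.03 over all genes.

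**Figure D1:**
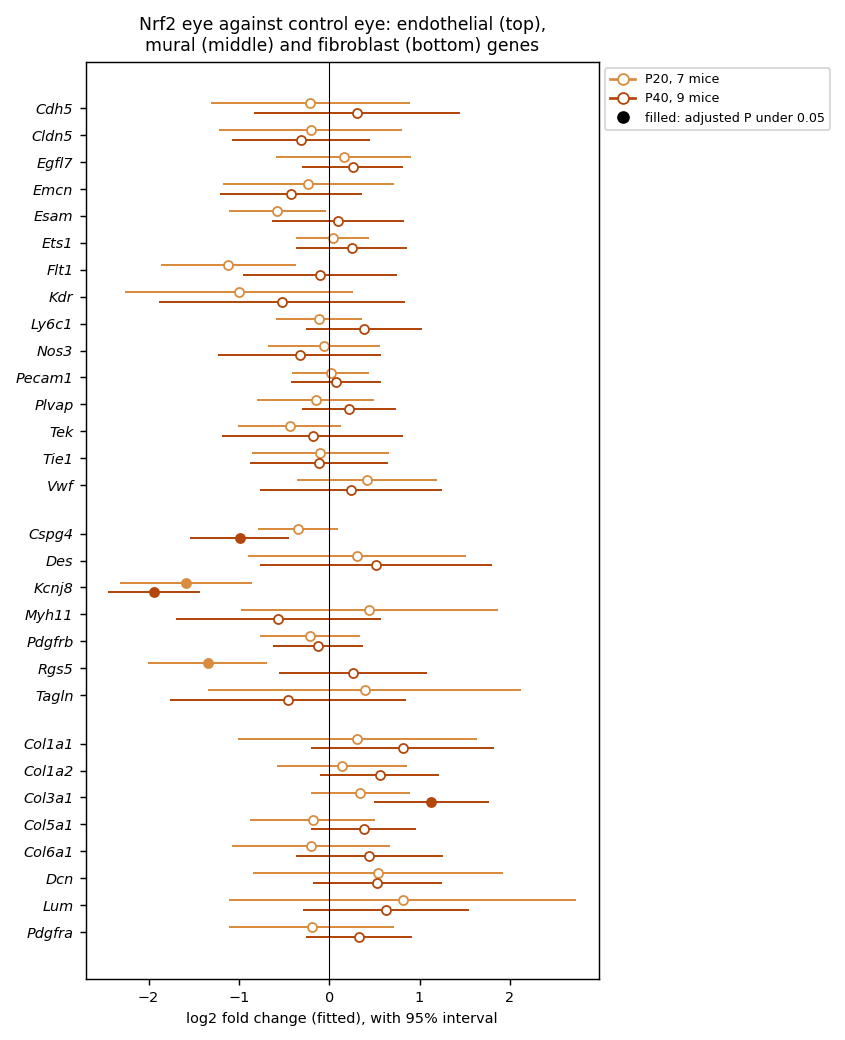
Log2 fold change of the 30 genes in Nrf2 eyes against control eyes, at P20 and at P40, as fitted by edgeR with the mouse as a block, with 95% intervals. Filled points had an adjusted *P* value under 0.05; these are *Kcnj8* and *Rgs5* at P20, and *Kcnj8*, *Cspg4* and *Col3a1* at P40.

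Of the mural genes, *Kcnj8* (chr6:142564837-142571614) was lower in the Nrf2 eye at both ages. At P20, its level was 14.7 to 75.7 CPM in control eyes (median 46.4) and 8.77 to 34.1 CPM in Nrf2 eyes (median 14.4). The groups overlapped, with the control eye of mouse 5 at the low end and the library labelled Nrf2 of mouse 4 at the high end. The level was lower in the Nrf2 eye in 7 of 7 mice, with a change of −1.59 (log2; SE 0.316, adjusted *P* = 0.0337 from edgeR). Without mice 3 and 4, the log2 fold change was −1.81 and the adjusted *P* value 0.0501, just above the threshold, so the gene did not pass.

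At P40, *Kcnj8* ranged from 14.7 to 107.4 CPM in control eyes (median 55.1) and from 9.59 to 18.8 CPM in Nrf2 eyes (median 14.1). Of the control eyes, the one of mouse 8 lay within the range of the Nrf2 eyes, and the other 8 lay above it. The gene was lower in 9 of 9 mice, by a change of −1.94 (log2; SE 0.226, adjusted *P* = 0.000364), and passed under each of 18 alternatives, with adjusted *P* values from 6.51e-14 to 0.00178. The effect did not pass the test of a difference between the ages (log2 difference −0.34, 95% interval −1.14 to 0.455). *Abcc9*, which encodes the regulatory subunit that the KCNJ8 channel needs, was read from a further list of mural genes and singled out after its values were seen. It changed by 0.16 (log2; SE 0.624, adjusted *P* = 0.922) at P20 and 0.10 (SE 0.560, adjusted *P* = 0.978) at P40.

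*Rgs5* (chr1:169655501-169695813), a regulator of G protein signaling and a common marker of pericytes, was lower with Nrf2 at P20. Its level was 1.96 to 7.76 CPM in control eyes (median 3.14) and 0.548 to 3.68 CPM in Nrf2 eyes (median 1.097). The ranges overlapped, but the Nrf2 eye was lower in 7 of 7 mice, with a change of −1.35 (log2; SE 0.286, adjusted *P* = 0.0414). Without mice 3 and 4 it was −1.21 (adjusted *P* = 0.101).

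At P40, *Rgs5* had 2.15 to 4.53 CPM in control eyes (median 2.81) and 1.56 to 16.6 CPM in Nrf2 eyes (median 3.85), and the highest value, in mouse 6, stood apart from the others. The Nrf2 eye was higher in 6 of 9 mice, a change of 0.27 (log2; SE 0.371, adjusted *P* = 0.879). Between P40 and P20, the Nrf2 effect differed by 1.62 (95% interval 0.61 to 2.64). It had an unadjusted *P* value of 0.00353 and an adjusted *P* value of 1 from edgeR, so that a difference between the ages was not established across all genes. It was 1.45 (SE 0.540, unadjusted *P* = 0.0162) without mice 3 and 4.

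*Cspg4* (chr9:56865033-56899870) encodes NG2, a surface proteoglycan of pericytes that is also made in the melanocyte lineage. At P40, it had 6.02 to 24.6 CPM in control eyes (median 8.72) and 2.46 to 7.98 CPM in Nrf2 eyes (median 5.45). It was lower in the Nrf2 eye in 9 of 9 mice, although the ranges overlapped, and the highest control eyes were those of mice 1 and 8. The fitted change (log2) was −0.99 (SE 0.246, adjusted *P* = 0.0410). The call was lost without mouse 1, 2, 4, 5, 7, 8 or 9, with no filter on low counts, and at a fold change of at least 2, with adjusted *P* values up to 0.111. At P20, *Cspg4* had 4.81 to 10.3 CPM in control eyes (median 7.01) and 4.60 to 6.92 CPM in Nrf2 eyes (median 5.33), a change of −0.34 (log2; SE 0.191, adjusted *P* = 0.379), with the Nrf2 eye lower in 6 of 7 mice. Without mice 3 and 4, this change was −0.45 (adjusted *P* = 0.382). The test of a difference between the ages gave −0.64 (95% interval −1.29 to 0.01, adjusted *P* = 1).

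*Pdgfrb*, the receptor that ties pericytes to platelet-derived growth factor B, stayed close between the eyes. It had 6.32 to 11.8 CPM in control eyes (median 10.6) and 6.80 to 11.3 CPM in Nrf2 eyes (median 7.18) at P20. At P40 the ranges were 2.43 to 10.4 CPM (median 6.85) and 1.90 to 12.4 CPM (median 5.63). Its fold change (log2) was −0.21 (95% interval −0.75 to 0.33, adjusted *P* = 0.676) and −0.12 (−0.61 to 0.36, adjusted *P* = 0.917), respectively, so that a change of 2-fold in either direction lay outside these intervals. At P20 it was −0.23 (SE 0.301, adjusted *P* = 0.743) without mice 3 and 4. The smooth muscle genes *Myh11* and *Tagln* and the intermediate filament gene *Des* (desmin) did not pass at either age. The 5 mural genes that did not pass had log2 fold changes from −0.34 to 0.44 at P20 and from −0.56 to 0.52 at P40.

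**Figure D2:**
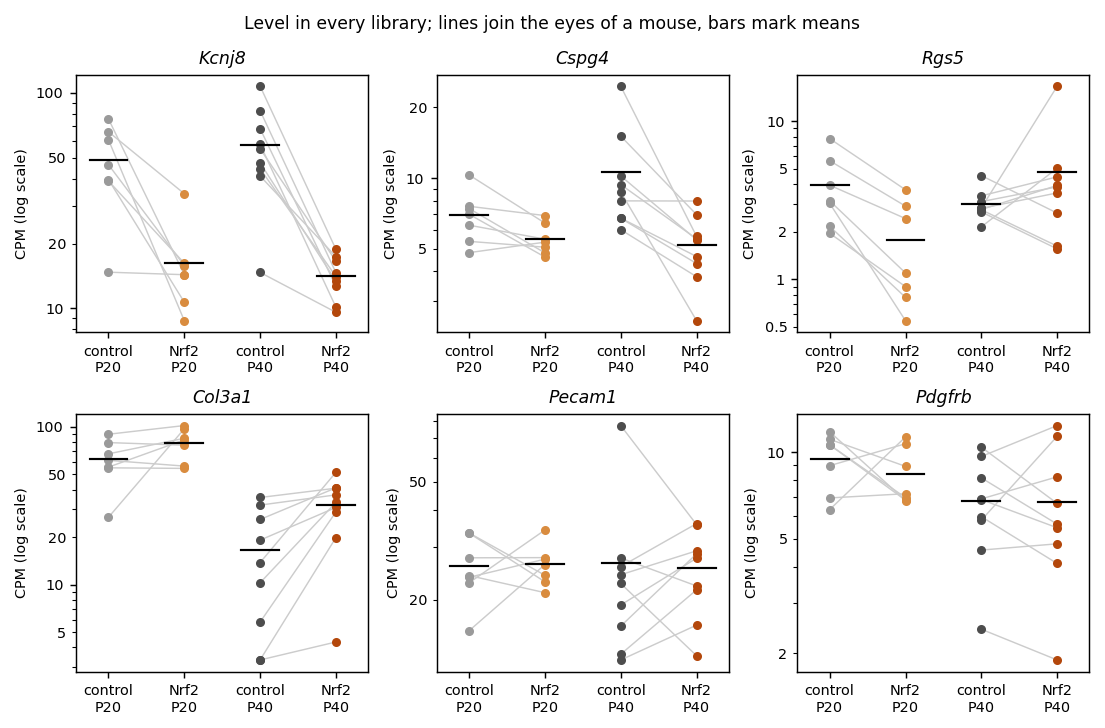
Level (CPM, log scale) in each library of the genes that passed in a comparison of Nrf2 eyes with control eyes, and of 2 genes that did not (*Pecam1* and *Pdgfrb*). Gray lines join the eyes of a mouse and bars mark group means; *Kcnj8* falls along every line, from a mean of 48.9 to 16.3 CPM at P20 and from 57.6 to 14.1 CPM at P40.

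In the endothelium, none of the 15 genes differed past the threshold of edgeR at either age. The unadjusted *P* value was under 0.05 for 2 of 15 at P20 and 0 of 15 at P40, and DESeq2 and limma voom each called 1 (*Flt1*) at P20 and 0 at P40. *Pecam1* encodes CD31, an adhesion molecule of endothelial junctions. At P20 it had 15.7 to 33.6 CPM in control eyes (median 24.1) and 21.1 to 34.4 CPM in Nrf2 eyes (median 26.3), and at P40 it had 12.5 to 77.4 CPM (median 22.7) and 12.9 to 36.1 CPM (median 27.6). The medians were thus close, and the control eye of P40 mouse 3 stood above all others. The log2 fold change with Nrf2 was 0.01 (95% interval −0.40 to 0.43, adjusted *P* = 0.978) at P20 and 0.08 (−0.41 to 0.56, adjusted *P* = 0.957) at P40. Leaving out mice 3 and 4 gave −0.18 (SE 0.195, adjusted *P* = 0.673) at P20.

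*Cdh5* (VE-cadherin) was low and varied more. It had 0.208 to 4.81 CPM in control eyes (median 1.41) and 0.898 to 2.13 CPM in Nrf2 eyes (median 1.28) at P20. At P40 it had 0.461 to 2.58 CPM (median 1.40) and 0.169 to 20.7 CPM (median 1.71). The log2 fold changes of −0.21 (95% interval −1.30 to 0.88) and 0.31 (−0.82 to 1.43) left room for changes in either direction (adjusted *P* = 0.856 and 0.910). The P20 value was 0.04 (SE 0.617) without mice 3 and 4.

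*Kdr* encodes the main signaling receptor for vascular endothelial growth factor. At P20, it had 4.49 to 83.3 CPM in control eyes (median 11.5) and 6.03 to 27.2 CPM in Nrf2 eyes (median 6.68), and at P40, 6.04 to 27.1 CPM (median 17.2) and 1.15 to 69.6 CPM (median 10.7). It was lower in the Nrf2 eye in 5 of 7 mice at P20 and in 7 of 9 mice at P40. Neither log2 fold change passed the threshold (−0.997, SE 0.549, adjusted *P* = 0.376, and −0.52, SE 0.617, adjusted *P* = 0.848), and the groups overlapped at both ages. At P20 it was −0.75 (SE 0.567, adjusted *P* = 0.525) without mice 3 and 4, and at P40 it turned to 0.33 without the block for the mouse.

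*Flt1*, which encodes the other receptor of this growth factor on endothelium, came nearest to the threshold of the 15 genes at P20 and was singled out for this after its values were seen. It had 9.36 to 30.9 CPM in control eyes (median 24.8) and 2.87 to 22.9 CPM in Nrf2 eyes (median 10.1), and was lower with Nrf2 in 6 of 7 mice. On the log2 scale, the change was −1.12 (SE 0.324, adjusted *P* = 0.113). It was called by DESeq2, by limma voom, without mice 3 and 4, and without mouse 4 alone, and over all alternatives its adjusted *P* value ran from 0.00845 to 0.304. At P40, it changed by −0.10 (log2; SE 0.386, adjusted *P* = 0.969), and the difference between the ages did not pass (1.03, 95% interval −0.11 to 2.17).

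The other endothelial genes were the receptors of the angiopoietin axis (*Tek* and *Tie1*), fenestral and surface proteins (*Plvap*, *Emcn*, *Ly6c1*), junction proteins (*Cldn5*, *Esam*), secreted factors (*Vwf*, *Egfl7*), the nitric oxide synthase *Nos3*, and the transcription factor *Ets1*. The log2 fold changes over all 15 genes ran from −1.12 (*Flt1*) to 0.42 (*Vwf*) at P20 and from −0.52 (*Kdr*) to 0.38 (*Ly6c1*) at P40. At P20, 4 of 15 were above 0, and at P40, 8 of 15. Counts of *Ly6c1* are uncertain, because it has a close copy, *Ly6c2*, with which reads can be shared. A further list of 22 endothelial genes gave 0 calls among 21 tested at P20 and 0 among 20 tested at P40, with median log2 fold changes of 0.09 and −0.14.

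Of the fibroblast genes, *Col3a1* (chr1:45311538-45349706), which encodes type III collagen, was higher with Nrf2 at P40. It had 3.34 to 35.6 CPM in control eyes (median 13.8) and 4.34 to 51.5 CPM in Nrf2 eyes (median 33.2). The ranges overlapped widely, but the Nrf2 eye was higher in 9 of 9 mice, with a change of 1.13 (log2; SE 0.288, adjusted *P* = 0.0459). The call was lost with library totals in place of normalization by TMM (adjusted *P* = 0.0790), without the block for the mouse, or without mouse 1, 2, 3, 5, 7 or 9. At P20, *Col3a1* had 26.7 to 89.6 CPM in control eyes (median 61.3) and 54.5 to 101.7 CPM in Nrf2 eyes (median 82.5), with a change of 0.35 (log2; SE 0.234, adjusted *P* = 0.469). Without mice 3 and 4, this change was 0.42 (adjusted *P* = 0.498).

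The other 7 fibroblast genes did not pass, but all 8 log2 fold changes were above 0 at P40, against 7755 of 16686 over all genes, and 5 of 8 at P20. All 9 skeletal muscle genes and all 5 blood genes tested were above 0 at P40 as well. The 8 fibroblast genes were read from the same eyes, so they are not separate observations. *Dcn* had 27.1 to 276.7 CPM in control eyes (median 122.1) and 66.2 to 423.8 CPM in Nrf2 eyes (median 177.1) at P20. At P40 it had 40.4 to 317.9 CPM (median 147.6) and 97.0 to 382.6 CPM (median 207.6). The Nrf2 eye was higher in 4 of 7 and in 7 of 9 mice, and the log2 fold changes of 0.54 (SE 0.602) and 0.53 (SE 0.323) did not pass (adjusted *P* = 0.672 and 0.587). At P20, the alternatives ran from −0.23 (limma voom) to 0.95, with 0.89 (SE 0.636, adjusted *P* = 0.495) without mice 3 and 4.

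*Col1a1*, which encodes a chain of type I collagen, had 23.3 to 150.2 CPM in control eyes (median 109.1) and 62.5 to 317.4 CPM in Nrf2 eyes (median 120.9) at P20. At P40 it had 5.98 to 62.4 CPM (median 12.5) and 7.99 to 66.8 CPM (median 26.4). The fitted change (log2) was 0.31 (SE 0.575, adjusted *P* = 0.817) at P20 and 0.81 (SE 0.459, adjusted *P* = 0.541) at P40, with the Nrf2 eye higher in 4 of 7 and 6 of 9 mice. At P20, the alternatives ran from −0.26 (limma voom) to 0.62, with 0.58 (SE 0.733, adjusted *P* = 0.730) without mice 3 and 4. The 7 genes that did not pass at P40 had log2 fold changes from 0.33 (*Pdgfra*) to 0.81.

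Whether Nrf2 acted differently at the 2 ages was tested for each gene, and none of the 30 passed, where 1 of 17959 genes passed (0.00557%). *Rgs5* was the 1 gene with an unadjusted *P* value under 0.05, and DESeq2 and limma voom gave 3 and 7 such genes but also no call. The median log2 difference was 0.21 over the 30 genes and 0.03 over all genes.

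The marker lists of other cell types moved with Nrf2 as well. At P40, 5 of 10 macrophage genes were higher (*C1qa*, *Lyz2* and *C1qb* with log2 fold changes of 1.91, 1.63 and 1.81), and the summed level of the 10 was 81.5 to 462.2 CPM in control eyes and 131.7 to 403.0 CPM in Nrf2 eyes. Not all of the list rose: 8 of 10 had log2 fold changes above 0, and *Csf1r* was lower in the Nrf2 eye in 8 of 9 mice. All 8 cone genes and 2 of 7 rod genes tested were lower. The summed level of the cone genes was 274.9 to 2112 CPM in control eyes and 29.7 to 312.5 CPM in Nrf2 eyes, and that of 8 rod genes was 63.0 to 526.0 CPM and 7.14 to 120.6 CPM. Of 12 RPE genes, 6 were lower at P40 (*Rpe65*, *Lrat* and *Rlbp1* by log2 fold changes of −2.82, −1.80 and −1.18). The RPE list did not fall throughout, since 3 of 12 log2 fold changes at P40 were above 0. Among its genes, *Best1* rose with Nrf2 in all 9 mice of that age, by log2 differences from 0.345 to 1.893. The summed level of the 12 RPE genes at P40 was 11790 to 70430 CPM in control eyes and 12920 to 72240 CPM in Nrf2 eyes. At P20, 1 of 12 RPE genes (*Rpe65*, −2.17) and 2 of 8 cone genes (*Gnat2*, −1.69, and *Opn1sw*, −5.12) were lower, and 0 of 10 macrophage genes passed. None of 10 genes of Müller glia and the inner retina passed with Nrf2 at P20 or at P40. *Rpe65* and *Gnat2* still passed at P20 without mice 3 and 4 (adjusted *P* = 0.0169 and 0.0157), and *Opn1sw* did not (adjusted *P* = 0.108). No gene of the macrophage, cone, rod or RPE lists had a median of 0 counts in any group. The part of these shifts in the results for the mural and fibroblast genes was not tested.

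Among further genes of the same compartments, *Col6a3*, which encodes a chain of type VI collagen, was higher with Nrf2 at both ages, the 1 of 18 further fibroblast genes to pass at P20 and at P40. It had 3.47 to 10.9 CPM in control eyes and 25.2 to 52.3 CPM in Nrf2 eyes at P20, with no overlap. At P40 it had 2.28 to 8.25 CPM and 3.45 to 44.6 CPM, and was higher in 8 of 9 mice. Its fold change (log2) was 2.24 (SE 0.278, adjusted *P* = 0.00921) at P20 and 2.23 (SE 0.417, adjusted *P* = 0.00812) at P40, and 2.23 (adjusted *P* = 0.0236) at P20 without mice 3 and 4. *Col6a1*, which encodes another chain of the same collagen, was among the 8 fibroblast genes, and its log2 fold change at P20 was −0.20 (SE 0.380, adjusted *P* = 0.822). None of 11 further mural genes tested passed at P20 or at P40. Of 10 Schwann cell genes tested, *Cdh19* was higher at P20 (2.06, SE 0.307, adjusted *P* = 0.0134, and 2.38 with adjusted *P* = 0.00764 without mice 3 and 4), and none passed at P40.

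Of 11 ligands that act on these cells, *Angpt1* (angiopoietin 1, the agonist of TEK) was higher in the Nrf2 eye in every mouse. At P20 it had 1.58 to 11.3 CPM in control eyes (median 5.38) and 12.7 to 32.5 CPM in Nrf2 eyes (median 25.5), and at P40, 1.21 to 5.15 CPM (median 3.79) and 11.97 to 24.5 CPM (median 17.6). The groups did not overlap at either age. On the log2 scale, the change was 2.27 (SE 0.257, adjusted *P* = 0.00921) at P20 and 2.25 (SE 0.233, adjusted *P* = 0.000146) at P40, and without mice 3 and 4 it was 2.52 (adjusted *P* = 0.00723) at P20. *Pdgfc* was higher at P20 in 7 of 7 mice (0.63, SE 0.138, adjusted *P* = 0.0461), but its adjusted *P* value was 0.0694 without mice 3 and 4. The other 9 ligands at P20 and the other 10 at P40 did not pass, among them *Vegfa*, the growth factor that maintains the choriocapillaris (−0.05, 95% interval −0.66 to 0.56, and −0.17, −0.66 to 0.32).

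The comparison of P40 with P20 in control eyes asks what changed between these ages. All P20 libraries are labelled *rd1*, so advancing degeneration and normal growth over this time cannot be told apart. The fibroblast genes made up most of what passed: 6 of 8 were lower at P40, together with *Myh11* of the mural genes and *Ets1* of the endothelial genes. In all, 8 of 30 genes passed, all lower, where 14.8% of all genes passed (2483 of 16832), 6.42% lower and 8.34% higher. When 1 eye was left out, the share over all genes ran from 2.77% (without the P20 eye of mouse 5) to 25.6% (without the P40 eye of mouse 1). The median log2 fold change was −1.29 over the fibroblast genes, −0.37 over the mural genes and −0.09 over the endothelial genes, against 0.00 over all genes, rounded from −4.61e-05. Without mice 3 and 4, however, *Col1a1* alone of the 30 genes passed, and only 0.916% of all genes did (158 genes, 35 higher and 123 lower), while the log2 fold changes of the 8 genes lay between −0.77 and −2.43.

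**Figure D3:**
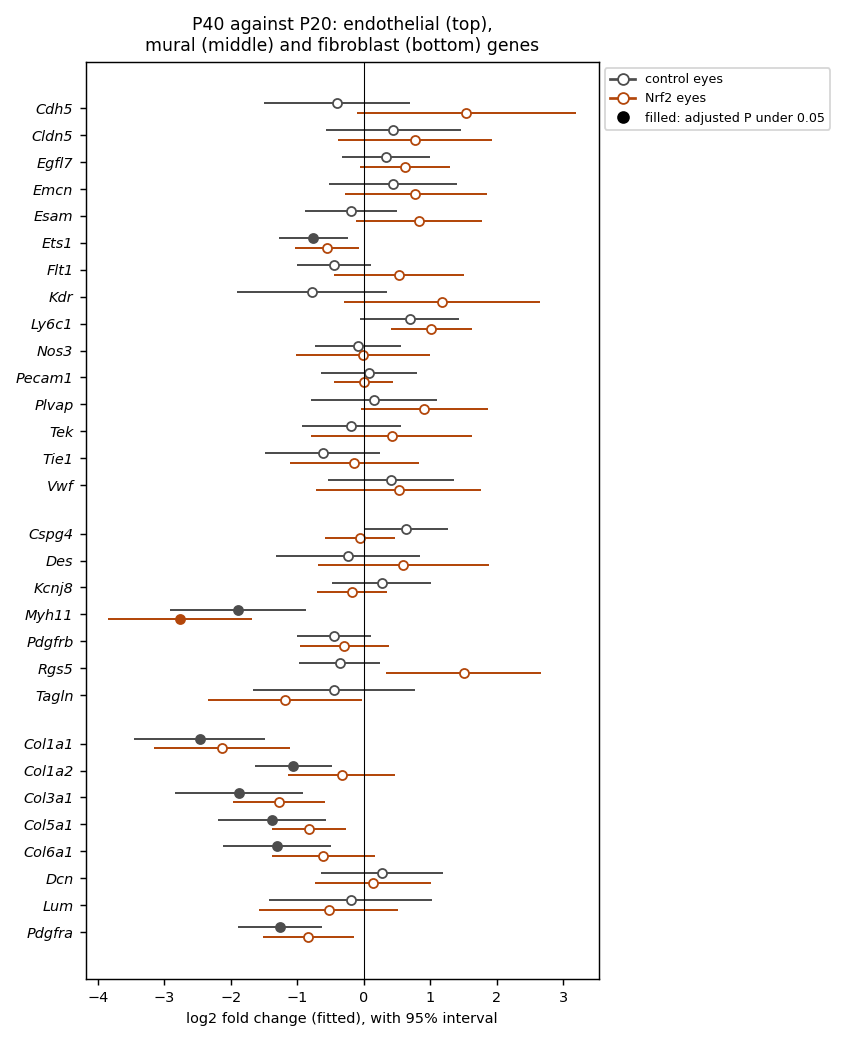
Log2 fold change of the 30 genes at P40 against P20, separately for control and Nrf2 eyes, as fitted by edgeR, with 95% intervals. Filled points had an adjusted *P* value under 0.05; the 8 filled points of control eyes lie below 0, and *Myh11* is the 1 filled point of Nrf2 eyes.

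*Col1a1* (chr11:94936224-94953042) showed the largest change of the 30 in control eyes. Its mean level was 101.3 ± 42.6 CPM (SD, n = 7) in control eyes at P20 and 17.9 ± 17.4 CPM (SD, n = 9) at P40. Of the eyes at P20, that of mouse 6 was the lowest, at 23.3 CPM, and of those at P40, that of mouse 1 was the highest, at 62.4 CPM, and these made the groups overlap. The fitted change (log2) was −2.47 (SE 0.459, adjusted *P* = 0.00911), and −2.43 (adjusted *P* = 0.0421) without mice 3 and 4. In Nrf2 eyes the mean was 145.0 ± 93.6 CPM (SD, n = 7) at P20 and 32.3 ± 22.3 CPM (SD, n = 9) at P40, and the log2 fold change of −2.13 (SE 0.479) had an adjusted *P* value of 0.0603. It was −2.33 (SE 0.522, adjusted *P* = 0.129) without mice 3 and 4.

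*Col3a1*, whose product lies in the same fibrils as type I collagen, had a mean of 62.1 ± 20.1 CPM (SD, n = 7) in control eyes at P20 and 16.6 ± 12.3 CPM (SD, n = 9) at P40. This change of −1.88 (log2; SE 0.450, adjusted *P* = 0.0223) was −1.78 without mice 3 and 4, with an adjusted *P* value of 0.0794. In Nrf2 eyes the groups did not overlap, with 54.5 to 101.7 CPM at P20 and 4.34 to 51.5 CPM at P40. The log2 fold change there was −1.28 (SE 0.321, adjusted *P* = 0.0834). It passed with DESeq2 and with limma voom. The value without mice 3 and 4 was −1.27 (adjusted *P* = 0.238).

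*Col1a2* (chr6:4504814-4541544), which encodes the other chain of type I collagen, ranged in control eyes from 23.8 to 109.3 CPM (median 83.1) at P20 and from 22.1 to 61.8 CPM (median 36.6) at P40. In Nrf2 eyes the level was 54.5 to 127.3 CPM (median 95.9) and 21.4 to 168.7 CPM (median 42.2), and the highest P40 eye was that of mouse 6. Its fold change (log2) was −1.06 (SE 0.266, adjusted *P* = 0.0260) in control eyes and −0.33 (adjusted *P* = 0.591) in Nrf2 eyes. Without mice 3 and 4, the adjusted *P* value in control eyes was 0.0849.

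*Col5a1* (chr2:27886425-28039514) encodes a chain of type V collagen, which sets the width of fibrils. It ranged in control eyes from 4.99 to 26.9 CPM (median 20.7) at P20 and from 1.15 to 11.3 CPM (median 6.64) at P40, and 12.4 to 20.3 CPM (median 15.7) and 4.07 to 13.8 CPM (median 8.15) in Nrf2 eyes. *Col6a1* (chr10:76708792-76726168) had 3.91 to 26.2 CPM (median 13.1) and 2.21 to 10.1 CPM (median 4.42) in control eyes, and 4.99 to 18.4 CPM (median 8.85) and 2.81 to 16.7 CPM (median 6.82) in Nrf2 eyes. The groups overlapped in each case. In control eyes, the fitted change (log2) was −1.38 (SE 0.379, adjusted *P* = 0.0316) for *Col5a1* and −1.31 (SE 0.380, adjusted *P* = 0.0358) for *Col6a1*, and without mice 3 and 4 it was −1.37 (adjusted *P* = 0.0933) and −0.89 (adjusted *P* = 0.162).

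*Pdgfra* (chr5:75152292-75198215), the growth factor receptor that marks fibroblasts, ranged in control eyes from 5.28 to 19.9 CPM (median 11.5) at P20 and from 1.51 to 7.22 CPM (median 4.60) at P40. In Nrf2 eyes the level was 4.39 to 18.9 CPM (median 7.76) and 4.18 to 10.5 CPM (median 5.45). The control eyes at P20 lay above all of those at P40, except that of mouse 6. The log2 fold change in control eyes was −1.26 (SE 0.295, adjusted *P* = 0.0205), and −0.99 (adjusted *P* = 0.0934) without mice 3 and 4.

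The proteoglycan genes did not pass with age in control eyes. In control eyes, the mean of *Dcn* was 135.8 ± 80.5 CPM (SD, n = 7) at P20 and 159.5 ± 93.5 CPM (SD, n = 9) at P40, a change of 0.27 on the log2 scale (95% interval −0.63 to 1.18, adjusted *P* = 0.673). It was 0.58 (SE 0.478, adjusted *P* = 0.441) without mice 3 and 4. *Lum* (lumican) had a change of −0.20 (log2; SE 0.574, adjusted *P* = 0.830), which turned to 0.22 (SE 0.633, adjusted *P* = 0.845) without mice 3 and 4. A difference between these 2 genes and the collagens was not tested.

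**Figure D4:**
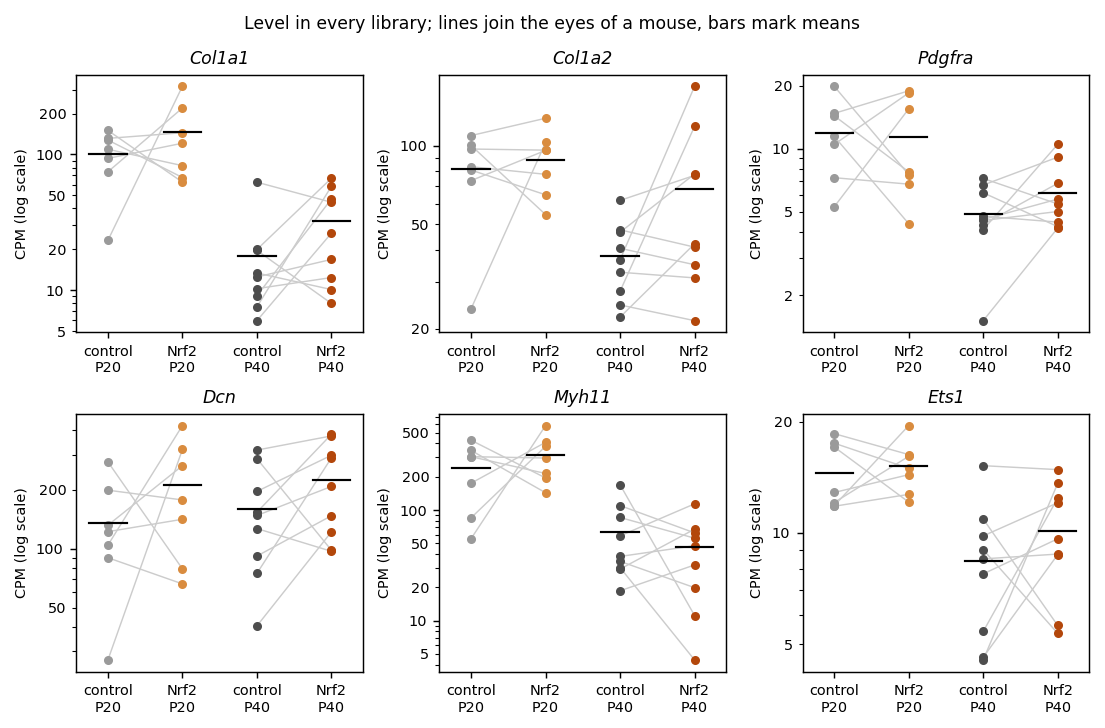
Level (CPM, log scale) in each library of 3 fibroblast genes that passed with age in control eyes, of *Dcn*, which did not, and of *Myh11* and *Ets1*. Gray lines join the eyes of a mouse and bars mark group means; the means of *Col1a1* are 101.3 CPM in control eyes at P20 and 17.9 CPM at P40, whereas those of *Dcn* are 135.8 and 159.5 CPM.

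*Myh11* (chr16:14194535-14291372), the smooth muscle myosin heavy chain, fell with age in both kinds of eye. In control eyes the level was 55.0 to 427.8 CPM (median 303.7) at P20 and 18.6 to 169.2 CPM (median 38.1) at P40. In Nrf2 eyes the level was 143.4 to 580.6 CPM (median 295.3) and 4.41 to 113.8 CPM (median 47.6), and these groups did not overlap. On the log2 scale, the change was −1.89 (SE 0.478, adjusted *P* = 0.0269) in control eyes and −2.76 (SE 0.505, adjusted *P* = 0.0223) in Nrf2 eyes. The corresponding values were −1.76 (adjusted *P* = 0.0853) and −2.79 (adjusted *P* = 0.0772) without mice 3 and 4.

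*Tagln*, another smooth muscle gene, changed by −0.45 (log2) in control eyes and by −1.19 in Nrf2 eyes, and passed in neither. Of the pericyte genes, *Kcnj8* and *Pdgfrb* did not pass with age in control eyes (0.26, 95% interval −0.46 to 0.99, and −0.45, −0.996 to 0.09) or in Nrf2 eyes (−0.18, −0.69 to 0.33, and −0.29, −0.95 to 0.37). *Rgs5* had a log2 fold change of −0.37 (adjusted *P* = 0.370) in control eyes and 1.501 (adjusted *P* = 0.120) in Nrf2 eyes.

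*Ets1* (chr9:32636221-32757820), a transcription factor of endothelium that lymphocytes also express, was the 1 endothelial gene to pass with age. It ranged in control eyes from 11.8 to 18.6 CPM (median 12.9) at P20 and from 4.53 to 15.2 CPM (median 8.51) at P40. In Nrf2 eyes the level was 12.1 to 19.5 CPM (median 14.96) and 5.35 to 14.8 CPM (median 9.64). Control eyes changed by −0.76 (log2; SE 0.237, adjusted *P* = 0.0421), and by −0.77 (adjusted *P* = 0.109) without mice 3 and 4. The other 14 endothelial genes had log2 fold changes from −0.79 (*Kdr*) to 0.69 (*Ly6c1*) and did not pass, and *Pecam1* had 0.08 (95% interval −0.63 to 0.79).

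In Nrf2 eyes, *Myh11* was the 1 gene of the 30 to pass between P20 and P40, where 0.502% of all genes passed (84 of 16745), 0.334% lower and 0.167% higher, and no gene of the 30 passed without mice 3 and 4. The number depended on the tool: DESeq2 called 6 genes, adding *Ly6c1* and *Rgs5* (higher) and *Col1a1*, *Col3a1* and *Col5a1* (lower), and limma voom called 9, adding *Plvap* (higher) and *Col1a2* and *Ets1* (lower) to those of DESeq2. The median log2 fold change was −0.01 over the 30 genes and 0.02 over all genes. It was 0.62 over the endothelial genes, −0.18 over the mural genes and −0.72 over the fibroblast genes, and 11 of 15 endothelial genes but 1 of 8 fibroblast genes were above 0. A gene that passed in control eyes and not in Nrf2 eyes is not thereby shown to differ between them, and the test of the difference gave no call among the 30 genes.

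Of the further lists, 1 of 18 fibroblast genes and 1 of 11 mural genes passed with age in control eyes, both lower. *Sparc*, which encodes a collagen-binding matrix protein, had a change of −0.88 (log2; SE 0.219, adjusted *P* = 0.0258), and *Notch3*, the Notch receptor of mural cells, one of −1.59 (SE 0.465, adjusted *P* = 0.0366). The adjusted *P* values were 0.0866 and 0.0634 without mice 3 and 4. None of 21 further endothelial genes, 10 Schwann cell genes and 11 ligands passed in control eyes, and none of 20, 10 and 11 in Nrf2 eyes, nor any of the 18 fibroblast and 11 mural genes there.

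Markers of other tissues changed with age beside the collagens. In control eyes, *Col2a1* of the list for cartilage and sclera was lower (log2 fold change −3.71, adjusted *P* = 0.00296), the 1 of 6 tested to pass, and the summed level of that list was 235.9 to 354.0 CPM at P20 and 123.8 to 451.7 CPM at P40. Of 8 genes of this list, 2 had a median of 0 counts at each age. Of 8 melanocyte genes, 3 were lower in control eyes (*Pmel*, *Trpm1* and *Tyr*, with −1.94, −1.26 and −1.10) and 3 in Nrf2 eyes (*Pmel*, *Oca2* and *Trpm1*, with −2.52, −0.96 and −1.34). Their summed level in control eyes was 5235 to 17520 CPM at P20 and 2912 to 8891 CPM at P40. *Ttr* and *Ermn* of 12 RPE genes were higher in control eyes (2.20 and 1.16), whereas *Nr2e3* of the rod list (−2.54) and *Alas2* of 5 blood genes tested (−1.46) were lower. Without mice 3 and 4, *Col2a1* and *Pmel* of these genes still passed in control eyes (adjusted *P* = 0.0159 and 0.0426), and *Pmel* in Nrf2 eyes (adjusted *P* = 0.0386), and the others did not. None of 9 skeletal muscle genes tested passed in any comparison. With age in Nrf2 eyes, however, all 9 had log2 fold changes above 0, with a median of 2.23, and 8 had an unadjusted *P* value under 0.05. Their summed level in Nrf2 eyes was 17.5 to 281.9 CPM (median 68.2) at P20 and 32.2 to 2507 CPM (median 223.3) at P40. How far any of these shifts bears on the changes of the collagens and *Myh11* was not tested.

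The summed level of each compartment shows how much the eyes of a group differed from each other. The 15 endothelial genes summed to 121.5 to 410.3 CPM in control eyes at P20 (median 208.0) and 123.7 to 279.5 CPM in Nrf2 eyes (median 151.0). At P40 the sums were 133.4 to 314.8 CPM (median 220.1) and 79.0 to 486.2 CPM (median 263.2). The endothelial sum was thus spread most widely in Nrf2 eyes at P40, where mouse 6 was the highest and mouse 8 the lowest.

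The 7 mural genes summed to 131.3 to 651.5 CPM in control eyes at P20 (median 433.3) and 205.1 to 814.6 CPM in Nrf2 eyes (median 472.5). At P40 they summed to 72.4 to 417.8 CPM (median 156.2) and 59.9 to 277.4 CPM (median 121.6). For the 8 fibroblast genes, the medians were 442.6 and 494.8 CPM at P20, and 289.1 and 359.0 CPM at P40. The medians of the mural and fibroblast sums were lower at P40 than at P20 in both kinds of eye, with overlapping ranges. Each sum adds CPM without weights, so genes at high levels count most. In control eyes at P20, *Myh11* and *Tagln* had the highest means of the mural genes (242.3 and 83.9 CPM). *Dcn* and *Col1a1* had those of the fibroblast genes (135.8 and 101.3 CPM). The highest control sums at P20, 651.5 CPM for the mural and 697.3 CPM for the fibroblast genes, are those of mouse 3, whose library went against its label. Without mice 3 and 4, the highest were 514.5 and 538.5 CPM, and the medians in control and Nrf2 eyes at P20 were 208.0 and 149.2 CPM for the endothelial, 433.3 and 472.5 CPM for the mural, and 437.6 and 494.8 CPM for the fibroblast genes.

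**Figure D5:**
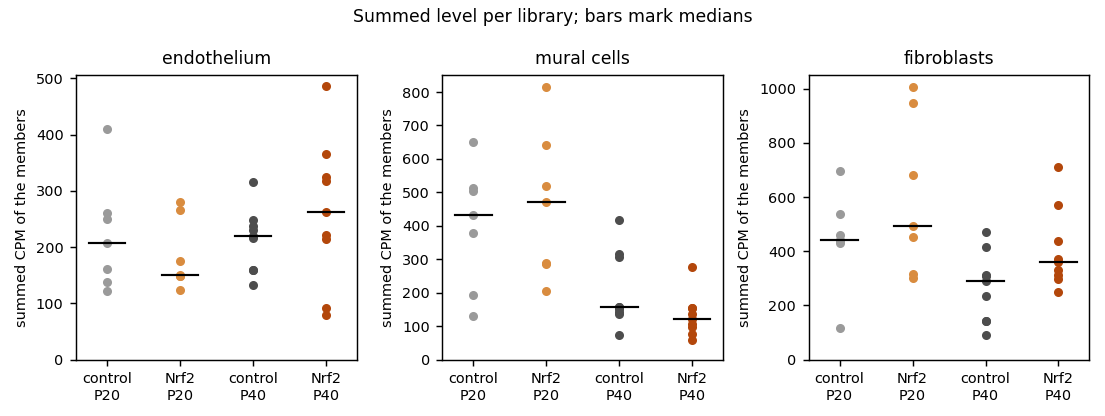
Summed level (CPM) of the endothelial, mural and fibroblast genes in each library, by group, with bars at the medians. The median mural sum is 433.3 CPM in control eyes at P20 and 156.2 CPM at P40, and the endothelial sum in Nrf2 eyes at P40 spreads from 79.0 to 486.2 CPM.

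Between the eyes of a mouse, the sums moved in either direction. Nrf2 eyes had the higher endothelial sum in 2 of 7 mice at P20 and in 4 of 9 mice at P40, and the mural sum in 3 of 7 and in 4 of 9. For the fibroblast sum, this held in 3 of 7 mice at P20 and in 7 of 9 mice at P40, with log2 ratios from −0.40 to 1.48 at P40 (median 0.59). The compartments did not always move together: the endothelial and fibroblast sums were both higher in 3 and both lower in 3 of 16 mice, whereas the mural and fibroblast sums were both higher in 7 and both lower in 6.

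The spread within a group was wide for most of the 30 genes. The SD of log2 CPM within a group ran from 0.226 (*Pecam1* in Nrf2 eyes at P20) to 1.87 (*Cdh5* in Nrf2 eyes at P40) in the endothelium, with a median of 0.783. It ran from 0.214 (*Cspg4*) to 1.49 (*Tagln*) in the mural genes, with a median of 0.808, and from 0.222 (*Col5a1*) to 1.49 (*Lum*) in the fibroblast genes, with a median of 0.849. Single eyes were often extreme for a whole compartment. The control eye of P20 mouse 6 had the lowest level of its group for 8 of 8 fibroblast genes, 5 of 7 mural genes and 9 of 15 endothelial genes. The 30 genes summed to 370.2 CPM in it, the lowest of all libraries but close to the control eye of P40 mouse 8 (372.4 CPM). The control eye of P20 mouse 2 had the highest level for 11 of 15 endothelial genes, and the Nrf2 eye of P20 mouse 1 for 10 of 15. In Nrf2 eyes at P40, the eye of mouse 6 had the highest level for 8 of 15 endothelial genes and that of mouse 8 the lowest for 8 of 15. Without the control eye of P20 mouse 6, 7 of the 30 genes passed with age in control eyes, and *Ets1* did not.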

How the data were processed

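RNA of 32 eyes from 16 mice was analysed. Per the methods, the authors amplified the RNA with an Ultra Low v4 kit, checked the reads with FastQC within bcbio-nextgen, aligned them to mm10 with Ensembl release 91 by STAR, counted them with featureCounts, and estimated transcripts with Salmon 0.9.1 (version from the submitters' processing notes), which tximport passed to DESeq2. Values were deposited as estimated counts for each gene, which the authors had rounded to whole numbers without normalizing them. They were taken to be the Salmon estimates, in which reads shared between similar genes are split by estimate. The kit does not mark strand, so that overlapping genes can share reads. Of 34453 rows, 34402 had a symbol and 4268 were at 0 in all libraries. Coordinates and exon lengths are those of GENCODE M21 (GRCm38).

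The estimated counts were tested with edgeR 4.0.16 in R 4.3.3: filterByExpr by group, TMM normalization, the quasi-likelihood test without robust dispersion, and Benjamini-Hochberg adjustment over all genes tested, with a threshold of 0.05. The mouse was a block for Nrf2 and for the difference between the ages, and no block was used between the ages. Each SE is the fold change (log2) over the root of its F statistic. CPM were scaled by TMM over all libraries, with a prior count of 2 on the log2 scale. Total counts were 16548332 to 50542797, and the precision this gives covers counting error only.

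The eyes are paired by the mouse, per the labels and the methods. After subtraction of the group means, the mean correlation between eyes was 0.0213 (P20) and 0.0990 (P40) within a mouse, and −0.000519 (P20) and −0.00632 (P40) across mice.

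The 30 genes and the further lists were chosen with earlier results of these data known. Levels are printed for each gene called in a comparison and for *Pecam1*, *Cdh5*, *Kdr*, *Pdgfrb*, *Rgs5*, *Dcn* and *Col1a1*, the others are given by range and count, and at most 3 called genes of a further list are named. Of the 22 further endothelial genes, *Ca4* was not matched by symbol. The further lists were endothelium, mural cells, fibroblasts, Schwann cells, ligands, RPE, melanocytes, rods, cones, Müller glia and inner retina, macrophages, skeletal muscle, blood, and cartilage and sclera. Alternatives were DESeq2 1.42.0, limma 3.58.1 (voom with quality weights), RLE normalization, library totals, no filter, at least 10 counts in 50% of the libraries, robust dispersion, a fold change of at least 2, the block added or removed, fits without P20 mice 3 and 4, and leaving out each mouse or eye. The script was tested on simulated data. No term for the sequencing run was fitted, and the strain was not modelled. Some results of the retinal lists are not reported here.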

Additional observations from a re-analysis of the deposited data

Results flagged for a closer look

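In 12 of 120 sets of values (each of the 30 genes in each of the 4 groups), 1 eye stood apart from the rest of its group by Dixon's test at the 95% level, which chance gives in about 1 in 20 sets. Of these, 4 belong to the control eye of P20 mouse 6, where the collagen genes *Col1a1* (23.3 CPM), *Col1a2* (23.8 CPM), *Col3a1* (26.7 CPM) and *Col5a1* (4.99 CPM) were far below the other control eyes. *Kcnj8* was low in 1 control eye at each age, that of P20 mouse 5 (14.7 CPM) and that of P40 mouse 8 (14.7 CPM), and both values lay within the range of the Nrf2 eyes of the same age. *Pdgfra* was low in the control eye of P40 mouse 3 (1.51 CPM), and *Col3a1* was low in the Nrf2 eye of P40 mouse 8 (4.34 CPM). High values were those of *Pecam1* in the control eye of P40 mouse 3 (77.4 CPM), *Kdr* in the Nrf2 eye of P20 mouse 2 (27.2 CPM), *Ly6c1* in the control eye of P20 mouse 2 (11.7 CPM), and *Rgs5* in the Nrf2 eye of P40 mouse 6 (16.6 CPM).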

How the results depend on the processing

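No call changed direction under any alternative run. Of genes that were not called, 18 of 28 with Nrf2 at P20, 7 of 27 with Nrf2 at P40, 8 of 22 with age in control eyes, 8 of 29 with age in Nrf2 eyes, and 12 of 30 for the difference between the ages changed sign under at least 1 alternative. The median log2 fold change of the 30 genes ran from −0.27 to 0.01 with Nrf2 at P20 and from −0.11 to 0.11 with age in Nrf2 eyes, so neither has a settled sign. It kept its sign with Nrf2 at P40 (0.01 to 0.29), with age in control eyes (−0.49 to −0.05), and for the difference between the ages (0.06 to 0.51). With Nrf2 at P20, 2 of the 30 genes were called. The number was 1 with no filter, 1 with no replicate block, and 1 without P20 mice 3 and 4 (*Flt1*, with *Kcnj8* and *Rgs5* lost), and 0 to 3 when 1 mouse was left out, with no call left without mouse 1, 2, 3, 6 or 7. *Kcnj8* kept its call in 11 of 17 alternatives and *Rgs5* in 8 of 17. With Nrf2 at P40, 3 genes were called, and 1 to 3 when 1 mouse was left out, with 1 left without mouse 1, 2, 5, 7 or 9. There, *Kcnj8* kept its call in 18 of 18 alternatives, *Cspg4* in 9 of 18 (lost with no filter, at a fold change of at least 2, and without mouse 1, 2, 4, 5, 7, 8 or 9), and *Col3a1* in 10 of 18.

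With age in control eyes, 8 genes were called. The number was 1 without P20 mice 3 and 4, and 3 to 8 when 1 eye was left out, with the fewest (3) without the P20 eye of mouse 1, 3 or 5, 4 without the P20 eye of mouse 2 or 7 or the P40 eye of mouse 5, and 5 without the P40 eye of mouse 3. *Col1a1* kept its call in 25 of 26 alternatives, *Col3a1* and *Pdgfra* in 24 each, *Col1a2* in 20, *Myh11* in 19, *Col5a1* in 17, *Col6a1* in 14 and *Ets1* in 10. With age in Nrf2 eyes, 1 gene was called, against 6 with DESeq2, 9 with limma voom, 0 without P20 mice 3 and 4, and 0 to 3 when 1 eye was left out (0 without the P20 eye of mouse 6, 2 without the P40 eye of mouse 6 or 8, and 3 without that of mouse 2). A replicate block by mouse number, which pairs no animals between the ages, left 0 calls in control eyes and 0 in Nrf2 eyes. For the difference between the ages, 0 genes were called under every alternative run. The cause of these changes was not tested.

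Over all genes, the calls at P20 were 1244 higher and 707 lower with DESeq2, 1592 and 1013 with limma voom, 875 and 218 with no replicate block, 313 and 194 with library totals, 308 and 40 with no filter, and 288 and 35 at a fold change of at least 2. At P40 they were 873 and 507 with DESeq2 and 867 and 460 with limma voom. With age in control eyes they were 2687 and 1696 with DESeq2, 1625 and 2122 with limma voom, 521 and 1278 with library totals, 295 and 619 with no filter, 681 and 585 at a fold change of at least 2, and 8 and 51 with the block. In Nrf2 eyes they were 1196 and 636 with DESeq2, 610 and 1603 with limma voom, 10 and 29 with library totals, 8 and 23 with no filter, 2 and 1 with the block, and 7 and 13 without P20 mice 3 and 4. Library totals moved the median of all genes to −0.17 at P20, −0.18 with age in control eyes, and −0.12 with age in Nrf2 eyes.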
